A study of Mus musculus with 22 samples.

Results

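The 36 genes described here encode the proteins that take up, activate and oxidise fatty acids, together with a few that control this pathway. They were taken by symbol from a fixed list, and all 36 were found among the 23359 genes of the deposited expression table. The rule used no measured value, but the members and lists were chosen with earlier results of these data known. A fatty acid enters the cell, is bound by a carrier protein and is joined to coenzyme A by an acyl-CoA synthetase. Long chains are then passed to carnitine, carried across the inner mitochondrial membrane and returned to coenzyme A. Each turn of beta-oxidation runs through a dehydrogenase, a hydratase, a further dehydrogenase and a thiolase, and hands electrons to the respiratory chain through the electron transfer flavoproteins. The adult heart is known to draw most of its energy from this pathway, and the cells that contract are its main users.

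Poly-A RNA was sequenced from cardiac fibroblasts and cardiomyocytes of male wild-type C57BL/6 mice aged 10 to 14 weeks. The 19 fibroblast libraries fell into 7 groups: sedentary (n = 3), 3 days after a sham operation (n = 2), 3 days (n = 3) and 10 days (n = 3) after TAC, 5 days after MI (n = 2), and after 4 days (n = 3) or 10 days (n = 3) of swimming. The 3 cardiomyocyte libraries came from sedentary mice, and in each cell type 1 library titled only as wild type was counted as sedentary (replicate 3), and these 2 titles carry the same date. The labels give TAC and MI as abbreviations only. They were taken to mean transverse aortic constriction, a model of pressure overload, and myocardial infarction. No label ties a library to an animal of its own. The p-values therefore reflect the spread among these samples alone, which may be technical. TAC at 10 days and MI had no operated control of their own day and were compared with sedentary fibroblasts, so the operation and the disease cannot be told apart there. Both swim groups were also compared with sedentary fibroblasts.

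Expression is given as FPKM, fragments counted relative to transcript length and library size, and the depth of the libraries is unknown. Differences are log2 fold changes of FPKM + 1, which understate the change of genes at low FPKM. A gene is said to have risen or fallen at an adjusted p under 0.05 in limma, with Benjamini-Hochberg adjustment over all genes tested, and was tested where FPKM reached at least 1 in at least 2 of the libraries fitted. Total FPKM, in kilo-FPKM, ran from 85.1 to 119 in sedentary, 114 to 118 in sham and 100 to 101 in MI fibroblasts, against 138 to 169 after TAC, 148 to 205 after swimming and 180 to 198 in cardiomyocytes. All 15 cardiomyocyte markers were higher in cardiomyocytes and all 10 fibroblast markers were higher in fibroblasts. The sum of the 15 cardiomyocyte markers was 18490 to 23619 FPKM in cardiomyocytes and 75.2 to 903 FPKM in fibroblast libraries, lowest in sedentary replicate 2 and highest in TAC 10 day replicate 3. In bulk RNA, fewer cells of a type and less RNA per cell cannot be told apart.

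The 36 genes together held 4275, 4876 and 4952 FPKM in the cardiomyocyte libraries and 72.5, 113 and 152 FPKM in the sedentary fibroblast libraries. As a share of all FPKM this was 2.38% to 2.51% in cardiomyocytes and 0.0852% to 0.127% in sedentary fibroblasts. A single gene, Fabp3, made up a large part of the cardiomyocyte total, which was 2403 to 2763 FPKM without it.

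Of the 36 genes, 32 were higher and 4 lower in cardiomyocytes, where 38.7% of the 10371 genes tested were higher and 38.6% lower. For 6 of the 36 (Cpt1b, Acad9, Acad10, Acot2, Ppara and Ppargc1a) this is no evidence, because they reached the minimum level only through the cardiomyocyte libraries. Over the 30 genes that also reached it among fibroblasts, 26 were higher and 4 lower, with a median log2 fold change of 4.17 against -0.046 over all genes. The authors' deposited table called 31 of 34 tested genes higher and 3 lower (30.3% and 27.9% of all genes). It gave no test result for Acsl4 and Etfb. Every one of the 36 calls remained when any single library of the groups compared was left out. For the 6 genes named above, that is no evidence either.

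**Figure D1:**
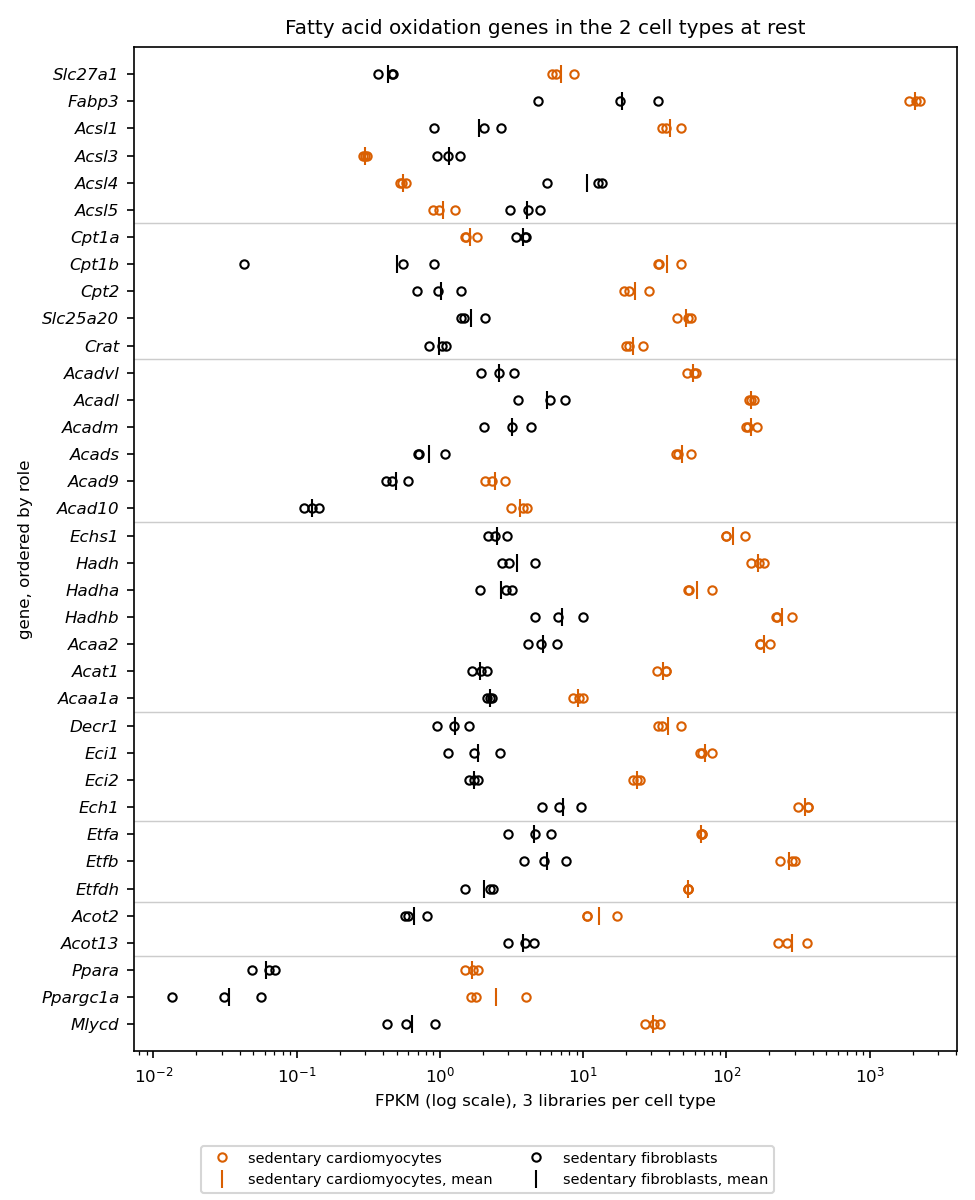
FPKM of the 36 genes on a log scale, with 1 circle for each of 3 sedentary cardiomyocyte libraries and 3 sedentary fibroblast libraries and a bar at each mean; grey lines part the roles. Acsl3, Acsl4, Acsl5 and Cpt1a are the genes whose fibroblast circles all lie to the right of the cardiomyocyte circles.

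Fabp3, the heart-type fatty acid binding protein that carries fatty acids in the cytosol, was the most abundant of the 36 in cardiomyocytes. It stood at 2235, 1872 and 2113 FPKM in cardiomyocytes and at 18.2, 4.84 and 33.2 FPKM in sedentary fibroblasts. The groups did not overlap, and the log2 fold change was 7.04 ± 0.558 (SE, limma, adjusted p = 2.82e-09). The uptake protein Slc27a1 was lower in both cell types, at 7.07 ± 1.39 FPKM (SD, n = 3) in cardiomyocytes and 0.436 ± 0.0562 FPKM (SD, n = 3) in fibroblasts.

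The acyl-CoA synthetases changed places between the cell types. Acsl1, the main synthetase of heart and fat, stood at 35.5, 38 and 48.3 FPKM in cardiomyocytes and at 2.03, 0.909 and 2.68 FPKM in sedentary fibroblasts (log2 fold change 3.90). Acsl4, which prefers arachidonic acid, stood at 0.545, 0.528 and 0.585 FPKM in cardiomyocytes and at 12.8, 5.57 and 13.6 FPKM in sedentary fibroblasts (log2 fold change -2.82). Neither gene's groups overlapped, and the order of the pair was opposite in the 2 cell types. Of the summed FPKM of Acsl1, Acsl3, Acsl4 and Acsl5, Acsl1 made up 95.4% ± 0.892 (SD, n = 3) in cardiomyocytes and 10.2% ± 1.65 (SD, n = 3) in sedentary fibroblasts. Acsl4 made up 1.31% ± 0.145 and 58.9% ± 5.24 (SD, n = 3 each). Acsl5 (log2 fold change -1.29) and Acsl3 (-0.73) were also lower in cardiomyocytes, with mean FPKM of 1.05 against 4.07 and of 0.299 against 1.16. The call of Acsl3 was lost when a trend on transcript length and GC content was removed from each library (-0.19, limma adjusted p = 0.101).

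Carnitine palmitoyltransferase 1, the step that commits long chains to oxidation and is blocked by malonyl-CoA, showed the same exchange. Its muscle form Cpt1b stood at 34.1, 33.1 and 48.5 FPKM in cardiomyocytes and at 0.555, 0.0432 and 0.917 FPKM in sedentary fibroblasts. Its liver form Cpt1a stood at 1.5, 1.53 and 1.81 FPKM in cardiomyocytes and at 3.92, 4.01 and 3.43 FPKM in sedentary fibroblasts (log2 fold change -0.88, limma adjusted p = 0.000213). Cpt1b was the more abundant form in every cardiomyocyte library and Cpt1a in every fibroblast library. The ratio of Cpt1b to Cpt1a was 21.7 to 26.9 in cardiomyocytes and 0.0108 to 0.589 over the 19 fibroblast libraries. The locus listed for Cpt1b (mm10, chromosome 15, minus strand) also spans Chkb, so its level is uncertain where reads could be shared. The rest of the shuttle was higher in cardiomyocytes. The carrier Slc25a20 had mean FPKM of 51.9 against 1.65, the inner-membrane transferase Cpt2 23.1 against 1.02, and the short-chain transferase Crat 22.5 against 0.996.

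Acadl, Acadm, Acadvl and Acads, dehydrogenases of the first step named for the chain length they prefer, were higher in cardiomyocytes. Mean FPKM was 149 against 5.63 for Acadl (long chains), 148 against 3.18 for Acadm (medium), 58.1 against 2.61 for Acadvl (very long) and 49.1 against 0.834 for Acads (short). Acad9, which also helps assemble respiratory complex I, stood much lower in cardiomyocytes than these 4, at 2.42 FPKM against 0.494, and Acad10 at 3.65 against 0.129. Among the enzymes of the later steps, Hadhb, the thiolase subunit of the trifunctional protein, was the most abundant in cardiomyocytes (245 against 7.08 FPKM). It was followed by the thiolase Acaa2 (182 against 5.27), the 3-hydroxyacyl-CoA dehydrogenase Hadh (167 against 3.46) and the hydratase Echs1 (111 against 2.51). The peroxisomal thiolase Acaa1a differed least in this group, at 9.27 against 2.22 FPKM (log2 fold change 1.67). Its near-identical copy Acaa1b makes its level uncertain, as Acot1 does for Acot2.

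The auxiliary enzymes, which prepare unsaturated chains for the cycle, ranged in mean cardiomyocyte FPKM from 23.6 (Eci2) through 39.1 (Decr1) and 70.6 (Eci1) to 354 (Ech1). The 2 subunits of the electron transfer flavoprotein were at 67 (Etfa) and 274 FPKM (Etfb) in cardiomyocytes, and at 4.54 and 5.61 FPKM in fibroblasts. Their partner at the respiratory chain, Etfdh, was at 54.1 against 2.03 FPKM. The thioesterase Acot13 was at 286 against 3.82 FPKM and Acot2 at 12.9 against 0.664. Of the regulators, Mlycd, which breaks down malonyl-CoA, was at 30.8 against 0.643 FPKM. The nuclear receptor Ppara and its coactivator Ppargc1a were low in both cell types, at 1.68 and 2.47 FPKM in cardiomyocytes and at 0.0613 and 0.0337 FPKM in sedentary fibroblasts.

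Fibroblast libraries also held cardiomyocyte RNA, and the levels of the 36 genes are set beside it. In sedentary fibroblasts the 15 cardiomyocyte markers stood at 0.567% to 5.09% of their cardiomyocyte level (median 1.35%). The highest value was that of Atp2a2 alone, and the next was Ttn at 3.69%. The 36 genes stood at 0.905% to 1932% (median 3.7%), with 25 of them at or under 5.09% and 11 above. Of those 11, 7 were under 100%, among them Acaa1a and Acad9, and the other 4 were Acsl3, Acsl4, Acsl5 and Cpt1a. Of the 36, only Fabp3 (0.905%), Cpt1b (1.31%) and Acot13 (1.33%) lay under the marker median of 1.35%. How much of the fibroblast level of the 25 genes came from cardiomyocyte RNA was not tested. Cardiomyocyte libraries in turn held RNA of other cells. Against sedentary fibroblasts, mean FPKM there was 75.5 against 841 for Dcn, 1.91 against 24.6 for Col1a1 and 3.2 against 51.9 for Mfap5. Endothelial markers went both ways. Pecam1 (8.72 against 14.4), Cdh5, Tie1, Tek and Cldn5 were lower in cardiomyocyte libraries by mean FPKM. Egfl7 (13.7 against 3.58), Kdr and Emcn were higher there. Of the pericyte and smooth muscle markers, Rgs5 (40.3 against 18), Kcnj8 and Abcc9 were higher there. Myh11 (0.503 against 1.03) and Cspg4 were lower. How much of the cardiomyocyte level of Acsl3, Acsl4, Acsl5 and Cpt1a came from other cells was not tested.

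**Figure D2:**
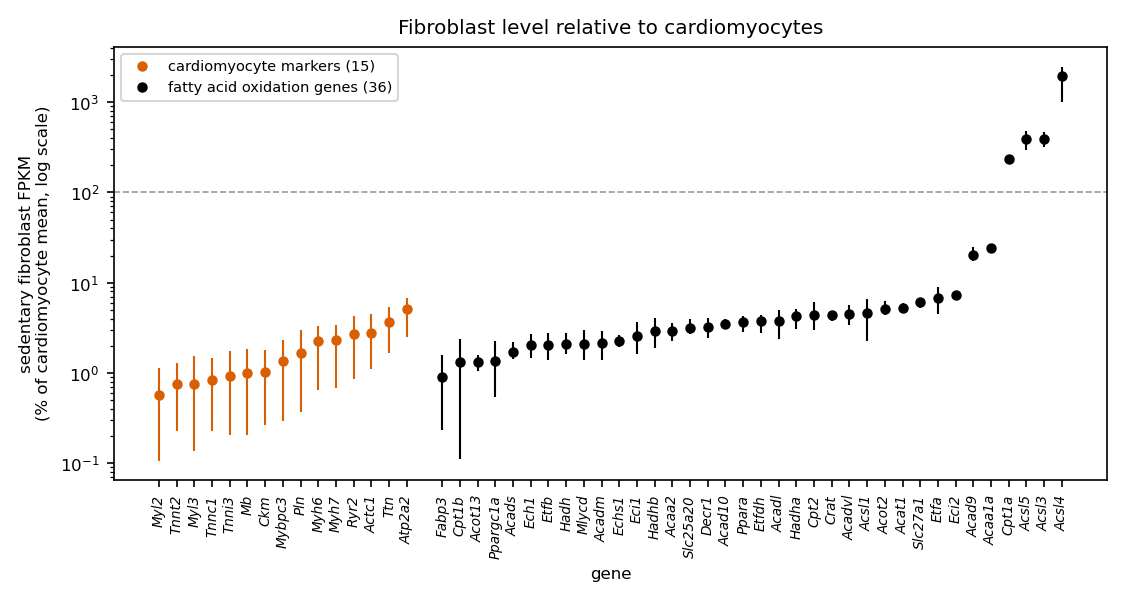
Level in sedentary fibroblasts as a percent of the cardiomyocyte mean, on a log scale, for 15 cardiomyocyte markers (orange) and the 36 genes (black). Points are means of 3 libraries and lines run from the lowest to the highest library; the dashed line marks equal levels, and 4 genes lie above it.

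Bases before the start sites are shown for the 4 genes that hold AGGTCA, the half-site bound by nuclear receptors such as the PPAR family, because they include genes higher (Acadm, Acadvl, Echs1) and lower (Cpt1a) in cardiomyocytes. Sequences are RefSeq's, build GRCm38.p6, 5′ to 3′ on the gene's strand, with the half-site on either strand in capitals and exonic bases of GENCODE M21 left out. Acadm lies on the minus strand (chr3:153944644-153944893), Acadvl on the minus strand (chr11:70015429-70015678), Echs1 on the minus strand (chr7:140116477-140116671) and Cpt1a on the plus strand (chr19:3323051-3323284).
Acadm: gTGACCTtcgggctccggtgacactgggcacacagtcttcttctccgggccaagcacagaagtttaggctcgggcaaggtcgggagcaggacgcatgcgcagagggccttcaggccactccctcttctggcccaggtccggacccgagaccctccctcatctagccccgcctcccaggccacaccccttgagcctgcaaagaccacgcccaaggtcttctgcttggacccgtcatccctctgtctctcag
Acadvl: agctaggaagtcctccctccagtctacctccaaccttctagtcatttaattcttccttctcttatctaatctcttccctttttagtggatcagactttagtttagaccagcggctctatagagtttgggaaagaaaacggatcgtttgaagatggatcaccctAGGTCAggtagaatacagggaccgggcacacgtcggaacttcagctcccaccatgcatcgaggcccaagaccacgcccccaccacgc
Echs1: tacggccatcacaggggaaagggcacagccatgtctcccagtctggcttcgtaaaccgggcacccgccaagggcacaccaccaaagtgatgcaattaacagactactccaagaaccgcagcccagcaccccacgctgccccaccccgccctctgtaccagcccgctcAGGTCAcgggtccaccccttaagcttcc
Cpt1a: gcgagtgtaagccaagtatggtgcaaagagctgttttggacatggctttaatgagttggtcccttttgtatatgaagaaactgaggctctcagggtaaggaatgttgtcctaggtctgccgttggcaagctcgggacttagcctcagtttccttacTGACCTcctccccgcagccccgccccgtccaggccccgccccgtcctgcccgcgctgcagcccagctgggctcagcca
Counted to the RefSeq start, the half-site begins 249 bases before Acadm, 87 before Acadvl, 83 before Echs1 and 94 before Cpt1a. GENCODE M21 places the starts of Echs1 (140116476) and Cpt1a (3322334) further upstream. The bases shown for Cpt1a therefore lie within its GENCODE gene.

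The table of promoters held 29 of the 36 genes, with no entry for Cpt1b, Crat, Acad9, Acaa2, Acat1, Decr1 and Acot13. In the 250 bases before the start, searched on both strands, AGGTCA occurred in 4 of the 29 genes (13.8%) and in 14% of all 32851 promoters. A direct repeat of these letters with 1 base between occurred in none of the 29 and in 0.0335% of all. The GC box GGGCGG occurred in 18 of the 29 (62.1%, against 32.7% of all), CCAAT in 13 (44.8%, against 33.8%) and TATAAA in none (12.4% of all). These are matches of letters within a short window, and nothing about binding was measured.

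Hadha and Hadhb, which encode the alpha and beta subunits of the trifunctional protein, lie head to head on chromosome 5. Counted to the RefSeq starts, 228 of the 250 bases before Hadhb also lie before Hadha on the other strand. GENCODE M21 places the start of Hadha further upstream (30155162), so part of these bases lies within its GENCODE gene. The exon-free bases between the GENCODE starts (chr5:30155163-30155247, shown on the strand of Hadhb, GGGCGG in capitals) are given because both genes start beside them.
Hadhb: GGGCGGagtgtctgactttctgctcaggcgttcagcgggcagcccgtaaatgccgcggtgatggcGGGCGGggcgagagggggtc
The FPKM ratio of Hadhb to Hadha was 2.3, 2.4 and 3.14 in sedentary fibroblasts, 2.01 and 1.77 after MI, 3.71, 6.09 and 5.44 after 4 days of swimming, and 4.27, 3.63 and 4.48 after 10 days of swimming. It was 2.72 and 2.19 in sham, 3.06, 3.59 and 3.34 after 3 days of TAC, and 2.71, 2.68 and 3.58 after 10 days of TAC. In cardiomyocytes it was 4.03, 4.22 and 3.63. All 6 swim ratios lay above every sedentary, sham, MI and TAC ratio. The principal transcripts of the pair are 4017 (Hadha) and 2048 bases (Hadhb), and the Hadha locus listed in the table also spans Garem2. The part of either in the ratio was not tested.

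Among fibroblast groups 30 of the 36 genes were tested. Of the other 6, Acad9, Acad10, Ppara and Ppargc1a reached an FPKM of 1 in no fibroblast library, and Ppargc1a is listed at 0 in TAC 10 day replicate 2. Cpt1b reached it only in TAC 10 day replicate 1 (1.07 FPKM), and Acot2 only in swim 4 day replicate 2 (1.06 FPKM). No shift of these 6 between fibroblast groups was tested.

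After 10 days of TAC, 18 of the 30 genes rose and 2 fell, against 38.8% of all 9425 genes tested that rose and 27% that fell. The median log2 fold change was 0.50 over the 30 and 0.12 over all genes. After 4 days of swimming 16 rose and 3 fell (38.2% and 26.3% of all genes, medians 0.47 and 0.13), and after 10 days of swimming 13 rose and 2 fell (30% and 13.6%, medians 0.22 and 0.14). After 3 days of TAC, against sham, 12 rose and 4 fell (31.3% and 25.8%, medians 0.21 and 0.046). Without sham replicate 1 the last comparison gave 6 and 2. Lower counts became 4 without TAC 10 day replicate 1 and 5 without swim 4 day replicate 1. After 10 days of swimming they became 0 to 1 without sedentary replicate 1 or 3 or swim 10 day replicate 2 or 3. The comparisons of TAC at 10 days, MI and both swim groups share the sedentary libraries, so a resemblance between them is no separate evidence. With all libraries scaled to the same median the counts were 18 and 4 after TAC at 10 days, 15 and 5 after 4 days of swimming, and 11 and 4 after 10 days of swimming. In the authors' deposited table they were 16 and 1 of 33 after TAC at 10 days (25.6% and 15.8% of all genes). They were 12 and 1 of 33 after 4 days of swimming (21.1% and 16.4%) and 9 and 1 of 32 after 10 days (16.6% and 11.6%). After TAC at 3 days they were 5 and 1 of 32 (17.3% and 18.3%).

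The summed level of the 36 genes was 72.5 to 152 FPKM in sedentary fibroblasts, 159 to 247 after 10 days of TAC and 168 to 196 after 4 days of swimming. As a share of all FPKM it was 0.0852% to 0.127% in sedentary fibroblasts and 0.0823% to 0.0957% after 4 days of swimming, which overlap. After 3 days of TAC it was 0.1% to 0.104%, below the 0.116% and 0.117% of sham. After 10 days of TAC it was 0.171%, 0.103% and 0.159%. Without Fabp3 it was 0.12%, 0.0893% and 0.0977% there and 0.0795% to 0.0991% in sedentary fibroblasts, which overlap.

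**Figure D3:**
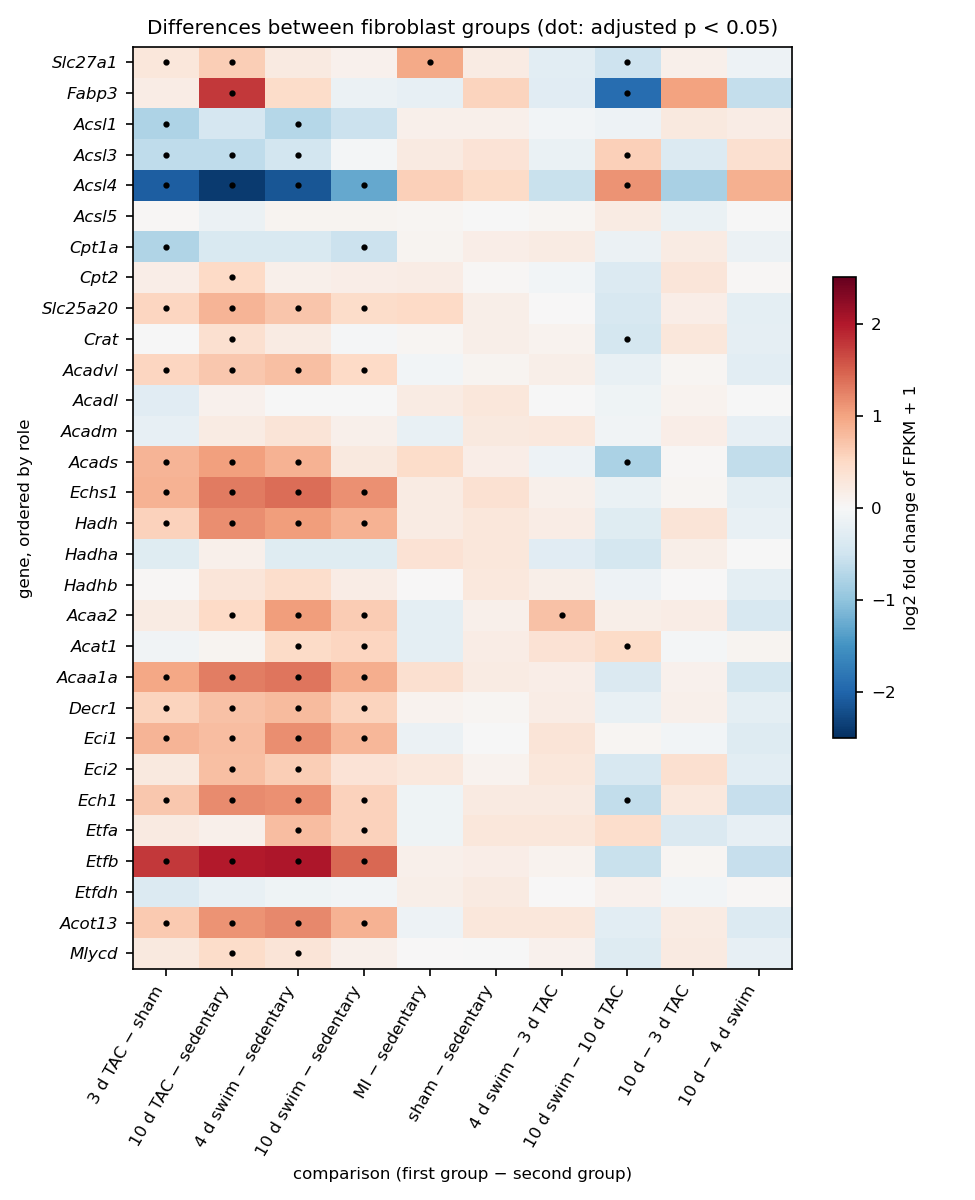
Log2 fold change of FPKM + 1 for the 30 genes tested in fibroblasts (rows, by role) in 10 comparisons (columns, first group minus second group), red for higher in the first group, with a dot at an adjusted p under 0.05. The first 4 columns hold 16, 20, 19 and 15 dots, and the MI and sham columns hold 1 and 0.

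Etfb, the beta subunit of the electron transfer flavoprotein, had the highest log2 fold change of the 30 genes in each of these 4 comparisons. It stood at 5.36, 3.84 and 7.62 FPKM in sedentary, 5.82 and 6.65 in sham, and 5.86 and 6.16 in MI fibroblasts. It stood at 23.6, 22.4 and 25 FPKM after 3 days and 21.8, 23.1 and 29.2 FPKM after 10 days of TAC, and at 22.4, 30.7 and 22.9 FPKM after 4 days and 15.4, 19.4 and 14.7 FPKM after 10 days of swimming. Every TAC and swim library lay above every control and MI library. The log2 fold change was 1.77 ± 0.227 after 3 days of TAC (SE, limma, adjusted p = 9.48e-06), 1.99 ± 0.203 after 10 days (1.4e-06), 2.02 ± 0.203 after 4 days of swimming (1.08e-06) and 1.44 ± 0.203 after 10 days (6.32e-05). With the length and GC trend removed these were 0.73, 0.94, 0.93 and 0.76, still called, with limma adjusted p from 0.000130 to 0.00326. The authors' deposited table called Etfb higher after 10 days of TAC (2.03) and 4 days of swimming (1.92). For 3 days of TAC and 10 days of swimming it gave no test result for Etfb. Its partner Etfa rose in the swim comparisons (0.78 and 0.58) and was not called after TAC (0.22 and 0.13), and with the trend removed it was called in neither swim comparison (0.36 and 0.25). Its call at 10 days of swimming was also lost without sedentary replicate 2, swim 10 day replicate 1 or swim 10 day replicate 2. Etfdh was called in no fibroblast comparison.

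Acsl4 moved the other way. It stood at 12.8, 5.57 and 13.6 FPKM in sedentary, 20.3 and 9.84 in sham and 13.7 and 18 in MI fibroblasts. It stood at 2.84, 3.75 and 1.68 FPKM after 3 days and 1.66, 1.2 and 0.54 FPKM after 10 days of TAC, and at 1.67, 0.711 and 2.37 FPKM after 4 days and 5.35, 1.94 and 4.1 FPKM after 10 days of swimming. Every TAC and swim library lay below every control and MI library. It fell by 2.06 on the log2 scale after 3 days of TAC, by 2.40 after 10 days, by 2.14 after 4 days of swimming and by 1.27 after 10 days (limma adjusted p = 0.000612, 4.56e-05, 0.00012 and 0.0122). With the length and GC trend removed the values were -1.13, -1.50, -1.30 and -0.73, and the last was no longer called (limma adjusted p = 0.082). It was also lost without sedentary replicate 1 (0.0578), sedentary replicate 3 (0.0501) or swim 10 day replicate 2 (0.0733). The authors' deposited table gave no test result for Acsl4 in any comparison. The share of Acsl4 in the FPKM of the 4 synthetases was 58.9% in sedentary fibroblasts, 17.3% ± 3.74 (SD, n = 3) after 10 days of TAC and 21.1% ± 7.25 (SD, n = 3) after 4 days of swimming. Acsl5 then made up most of it, at 58.5% and 61.6%. With the length and GC trend in place Acsl5 itself was called in no fibroblast comparison (2.43 to 5 FPKM over the 19 libraries). With that trend removed, Acsl5 was called higher after 3 days of TAC and after both swim times. Acsl1 fell after 3 days of TAC (-0.78) and 4 days of swimming (-0.72). Both calls were lost with the trend removed (-0.38 and -0.28), the first also without sham replicate 1 (limma adjusted p = 0.105) and the second without sedentary replicate 3 (0.0557). Acsl3 fell after 3 days (-0.64) and 10 days of TAC (-0.64) and after 4 days of swimming (-0.46), but with the trend removed its values were 0.00066, 0.028 and 0.17. After 10 days of swimming Acsl3 was called higher with the trend removed.

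At the entry to the mitochondrion, the carrier Slc25a20 rose in all 4 comparisons, from 1.48, 1.4 and 2.07 FPKM in sedentary fibroblasts to 4.15, 3.18 and 3.95 FPKM after 10 days of TAC (log2 fold change 0.85). With the length and GC trend removed it was called after 10 days of TAC and 4 days of swimming (0.61 and 0.33) and not in the other 2 (0.25 and 0.19), which single libraries also decided: sham replicate 1 after 3 days of TAC, and sedentary replicate 1 or 2 or swim 10 day replicate 2 after swimming. Cpt1a fell after 3 days of TAC (-0.75) and after 10 days of swimming (-0.53). It was 2.06 to 2.26 FPKM after 3 days of TAC against 3.86 and 4.85 in sham, with no overlap. The other 2 comparisons gave -0.38 (10 days of TAC) and -0.39 (4 days of swimming) and were not called. The call at 3 days of TAC was lost without sham replicate 2 (limma adjusted p = 0.0705), and that at 10 days of swimming in 5 of the 6 fits that left out a library (0.0556 to 0.0912). Neither call of Cpt1a held with the length and GC trend removed (-0.39 and -0.25). Cpt2 (0.50) and Crat (0.41) rose after 10 days of TAC and were not called in the other 3 comparisons (Cpt2 0.12 to 0.16, Crat -0.025 to 0.21). The call of Crat was lost without TAC 10 day replicate 1 (limma adjusted p = 0.0583). With the length and GC trend removed Crat was also called higher after 4 days of swimming.

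Among the dehydrogenases, Acadvl rose in all 4 comparisons (0.54 after 3 and 0.67 after 10 days of TAC, 0.76 after 4 and 0.49 after 10 days of swimming), although the call at 3 days of TAC was lost without sham replicate 2 and that at 10 days of swimming without sedentary replicate 2 or swim 10 day replicate 2. Acads rose in 3 of them: it stood at 0.712, 0.701 and 1.09 FPKM in sedentary fibroblasts, 2.88, 2.69 and 2.65 FPKM after 10 days of TAC and 1.78, 3.54 and 1.89 FPKM after 4 days of swimming. After 10 days of swimming it was 1.2, 1.41 and 0.917 FPKM, which overlaps the sedentary values. With the length and GC trend removed Acads was called after 10 days of TAC (0.40) but not after 3 days of TAC (0.26) or 4 days of swimming (0.32). Acadl and Acadm, for long and medium chains, were called in none of the comparisons between fibroblast groups, with log2 fold changes after 10 days of TAC of 0.10 ± 0.193 and 0.21 ± 0.186 (SE).

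Of the 7 enzymes of the later steps, 3 rose after 3 days and 4 after 10 days of TAC, and 5 after each swim time. Echs1 stood at 2.44, 2.16 and 2.93 FPKM in sedentary fibroblasts, 7.25, 7.25 and 8.44 FPKM after 10 days of TAC, 7.12, 11.3 and 6.65 FPKM after 4 days of swimming and 6.07, 7.65 and 6.46 FPKM after 10 days of swimming. Acaa1a, the peroxisomal thiolase, stood at 2.12, 2.23 and 2.32 FPKM in sedentary fibroblasts, 6.53, 6.75 and 7.09 FPKM after 10 days of TAC and 6.36, 8.85 and 6.51 FPKM after 4 days of swimming. In both genes every TAC and swim library lay above every sedentary one. Hadh rose in all 4 comparisons too, by 0.57 and 1.17 after 3 and 10 days of TAC and by 1.04 and 0.86 after 4 and 10 days of swimming, the call at 3 days of TAC being lost without sham replicate 1 or TAC 3 day replicate 3. The thiolases Acaa2 and Acat1 rose after both swim times (1.05 and 0.64 for Acaa2, 0.47 and 0.54 for Acat1). Acaa2 also rose after 10 days of TAC (0.50), which became -0.024 with the length and GC trend removed, as its value after 10 days of swimming became 0.23 (not called). Hadha and Hadhb were called in no fibroblast comparison with that trend in place. With it removed, Hadha was called higher after 10 days of TAC, and Hadhb there and after 4 days of swimming.

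All 4 auxiliary enzymes rose after 10 days of TAC and after 4 days of swimming. Ech1 stood at 6.84, 5.16 and 9.61 FPKM in sedentary fibroblasts, 20, 14.8 and 16.9 FPKM after 10 days of TAC and 15.3, 20.5 and 15 FPKM after 4 days of swimming, without overlap. The isomerase Eci1 rose by 0.77 and 1.16 and the reductase Decr1, which clears double bonds, by 0.73 and 0.80. The thioesterase Acot13 rose in all 4 comparisons, by 0.65 to 1.21. Mlycd rose after 10 days of TAC (0.46) and after 4 days of swimming (0.32). Acot13, Eci1 and Mlycd were called in none of the comparisons with the length and GC trend removed. Acot13 was then at -0.20 and 0.36 after 3 and 10 days of TAC and 0.25 and 0.21 after 4 and 10 days of swimming, and Eci1 at 0.057, -0.0039, 0.29 and 0.26. Mlycd was at -0.084 after 10 days of TAC and -0.076 after 4 days of swimming. Ech1 kept its call after 10 days of TAC (0.44) but not after 3 days (-0.065) or after swimming (0.34 and 0.042), and Eci2 kept its call after 10 days of TAC (0.40) but not after 4 days of swimming (0.18). Decr1 kept its 4 calls. Leaving out single libraries ended the calls of Acot13 (TAC 3 day replicate 3 or sham replicate 1), Ech1 (the same 2 libraries) and Decr1 (sham replicate 1) at 3 days of TAC, and that of Mlycd at 4 days of swimming (sedentary replicate 1 or 2, swim 4 day replicate 2 or 3).

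How far a gene rose went with the length of its transcript. Across the 30 genes, Spearman's rho between log2 fold change and the length of the principal transcript was -0.72 after 3 days of TAC, -0.78 after 10 days, -0.80 after 4 days of swimming and -0.71 after 10 days. Across 9349 genes it was -0.58, -0.53, -0.63 and -0.62. After MI it was 0.31 over the 30 and -0.026 over all genes. Genes are not independent replicates, and these values describe the libraries. Of the 14 genes under 2000 bases, 9, 12, 12 and 10 rose in the 4 comparisons and none fell; of the 16 longer genes 3, 6, 4 and 3 rose and 4, 2, 3 and 2 fell. Etfb has a transcript of 893 bases and Acsl4 one of 5280.

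**Figure D4:**
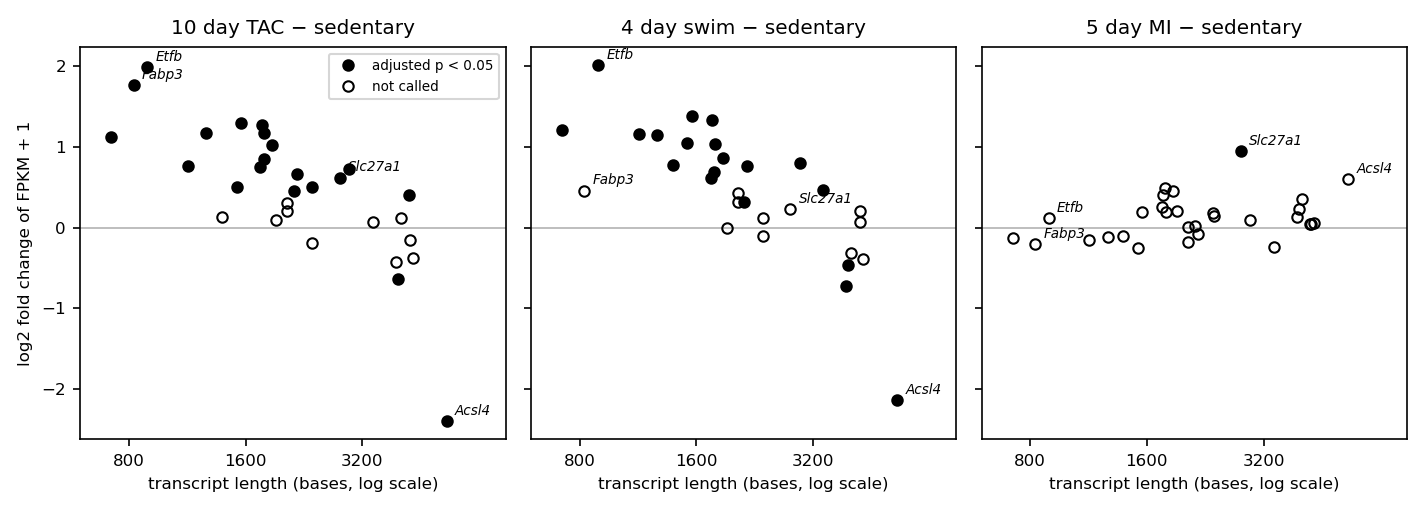
Log2 fold change of FPKM + 1 against the length of the principal transcript (bases, log scale) for the 30 genes, in 3 comparisons with sedentary fibroblasts; filled points passed an adjusted p of 0.05. In the TAC and swim panels the short transcripts lie high and Acsl4, at 5280 bases, lies lowest, while the MI panel shows no such fall.

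With a smooth trend on length and GC content removed from each library, 6 rose and 1 fell after 3 days of TAC, 16 and 1 after 10 days, 12 and 1 after 4 days of swimming, and 9 and 0 after 10 days. The share of all genes called after this step is not given here, so these counts cannot be set against a background. Acaa1a, Decr1, Echs1 and Etfb were called higher in all 4 comparisons both with and without this step. Acadvl and Hadh were called both ways in 3 of the 4 (all but TAC at 3 days). Acsl4 was called lower both ways in 3 of the 4. Medians over the 30 genes were then 0.021 after 3 days of TAC, 0.40 after 10 days, 0.31 after 4 and 0.16 after 10 days of swimming. The step also added genes called higher. These were Acat1 and Acsl5 after 3 days of TAC, and Hadha, Hadhb and Acat1 after 10 days of TAC. They were Acsl5, Crat and Hadhb after 4 days of swimming, and Acsl3 and Acsl5 after 10 days of swimming. Rn45s, the precursor of ribosomal RNA, was at 146 to 273 FPKM in sedentary and sham libraries and at 361 to 6988 FPKM in TAC and swim libraries, while the 2 MI libraries had 1289 and 120 FPKM. The part of RNA quality in the trend was not tested.

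Fabp3 rose after 10 days of TAC, and so did cardiomyocyte markers. It stood at 70.8, 20.8 and 95.7 FPKM there, and at 4.84 to 33.2 FPKM in the 16 other fibroblast libraries. The marker sum was 755, 219 and 903 FPKM in the same 3 TAC libraries, so replicates 1 and 3 were high and replicate 2 was not, in both. The log2 fold change against sedentary was 1.77 ± 0.593 (SE, limma, adjusted p = 0.0165, higher than all sedentary libraries in 2 of 3). The call was lost without TAC 10 day replicate 1 (1.55, limma adjusted p = 0.0586), TAC 10 day replicate 3 (1.34, 0.0816) or sedentary replicate 2 (1.05, 0.0841). It was 0.82 with the length and GC trend removed (limma adjusted p = 0.249) and 0.68 with the mean marker level in the model (0.00767). Of 13 cardiomyocyte markers tested, 7 rose in this comparison (Myl3 by 2.45, Tnnc1 by 2.20) and none fell, but Myh6 (-0.12) and Myh7 (-0.13) were not called.

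Over the 19 fibroblast libraries, Spearman's rho with the marker sum was 0.87 for Fabp3, 0.80 for Cpt1b and 0.74 for Acadl, 0.10 for Etfb and 0.054 for Acsl4. The libraries include all groups, so these are descriptions. With the marker level in the model, 16 of the 18 genes that rose after 10 days of TAC were again called higher, and all 12, 16 and 13 after 3 days of TAC and 4 and 10 days of swimming were. In those 3 comparisons none of the 13 markers tested was called higher, and 3, 3 and 2 were called lower. The markers moved in both directions, with 6, 7 and 5 of the 13 at a log2 fold change above 0. From sedentary to 4 day swim fibroblasts, mean Myh6 went from 8.39 to 1.09 FPKM and mean Myl3 from 20.3 to 34.6 FPKM. How well the mean marker level follows cardiomyocyte RNA was not tested.

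**Figure D5:**
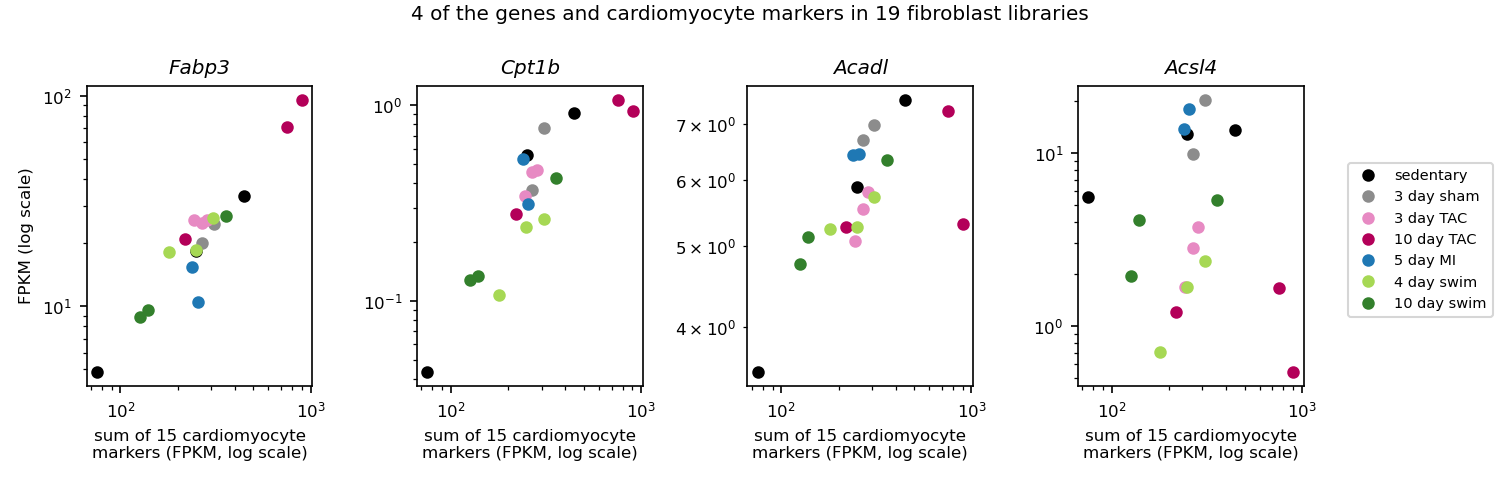
FPKM of Fabp3, Cpt1b, Acadl and Acsl4 against the sum of 15 cardiomyocyte markers (FPKM), both on log scales, in the 19 fibroblast libraries, coloured by group. Fabp3 and Cpt1b climb with the marker sum, with TAC 10 day replicates 1 and 3 at the upper right, and Acsl4 does not.

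Markers of other cells also moved with these comparisons. After 4 days of swimming 6 of 8 endothelial markers and 4 of 5 pericyte and smooth muscle markers fell, with 1 endothelial and 1 pericyte marker higher, and after 10 days of TAC 3 endothelial markers rose and 1 fell. The macrophage markers C1qa and C1qb rose in both (C1qa from 60.4 to 443 FPKM after 4 days of swimming and to 259 FPKM after 10 days of TAC), while Ptprc fell in both. Of 10 fibroblast markers, 4 rose and 4 fell after 10 days of TAC. None of 5 adipocyte markers reached the minimum level in enough libraries to be tested. The part of any of these cells in the changes of the 30 genes was not tested.

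After MI only Slc27a1, a fatty acid transport protein with synthetase activity, rose among the 30, where 8.93% of all genes rose and 2.34% fell. It stood at 1.57 and 1.99 FPKM after MI and at 0.462, 0.372 and 0.475 FPKM in sedentary fibroblasts, without overlap (log2 fold change 0.95 ± 0.111, SE, limma adjusted p = 1.32e-05). The authors' deposited table also called 1 of the genes higher and 0 lower (9.7% and 3.26% of all genes). The call held without each library of the 2 groups. Slc27a1 also rose after 10 days of TAC (0.62; 0.36 with the length and GC trend removed, still called). Its call after 3 days of TAC (0.28) was lost without any of the 3 TAC libraries (limma adjusted p from 0.0619 to 0.091), without sham replicate 1 (0.10, 0.532) and with the trend removed (0.078). It stood at 1.15 to 1.28 FPKM after 10 days of TAC. The number of genes called after MI became 2 without sedentary replicate 3 and 3 with the length and GC trend removed, where Acaa1a and Slc25a20 joined it. MI had 2 libraries, and values under 1 FPKM rest on few fragments.

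Between sham and sedentary fibroblasts, the 2 controls, none of the 30 genes was called by limma. At an unadjusted p under 0.05 there were 0 as well, and the authors' deposited table called 0 (1.39% and 0.545% of all genes). By limma, 0.0212% of all genes were higher and 0% lower. The median log2 fold change of the 30 was 0.20, with sham the higher.

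Swimming was set directly against TAC at 10 days, with no control library involved. Of the 30 genes 3 were higher and 5 lower after swimming (10.9% and 13.2% of all genes). Fabp3 was lower (-1.90), at 26.7, 8.88 and 9.57 FPKM after swimming, where the cardiomyocyte marker sums were 358, 126 and 139 FPKM. With the marker level in the model its value was -0.54 (limma adjusted p = 0.0693). Acads (-0.79), Ech1 (-0.61), Slc27a1 (-0.51) and Crat (-0.43) were also lower, and Acsl4 (1.13), Acsl3 (0.60) and Acat1 (0.47) were higher. For Acads all 3 swim libraries (0.917 to 1.41 FPKM) lay below all 3 TAC libraries (2.65 to 2.88 FPKM), and its limma adjusted p was 0.00368. Acads and Slc27a1 were the 2 genes called whichever library was left out. The other 6 were each lost without some single libraries. Without TAC 10 day replicate 3, swim 10 day replicate 1 or swim 10 day replicate 3 none of the 3 higher calls was left, and without TAC 10 day replicate 2 the lower calls numbered 8. They numbered 2 to 3 without TAC 10 day replicate 1, TAC 10 day replicate 3 or swim 10 day replicate 3. The split was 3 higher and 10 lower with libraries scaled to the same median, 4 and 3 with the marker level in the model, and 0 and 4 with the length and GC trend removed.

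At the early times, 4 days of swimming and 3 days of TAC differed in 1 of the 30 genes, with 5.2% of all genes higher and 3.66% lower. Acaa2 stood at 10.6, 12.7 and 12.2 FPKM after swimming and 6.11, 6.7 and 7.43 FPKM after TAC, without overlap (log2 fold change 0.73 ± 0.176, SE, limma adjusted p = 0.015). The call was lost without TAC 3 day replicate 1 (0.0894) or swim 4 day replicate 2 (0.0521). The days differ by 1, so time and stimulus cannot be told apart here.

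Over time no gene of the 30 was called by limma. From 3 to 10 days of TAC 4 of the 30 had an unadjusted p under 0.05 (4.42% of all genes were called higher and 2.18% lower). The authors' deposited table called 1 higher there, with 7.83% of all genes higher and 5.09% lower. From 4 to 10 days of swimming 7 had an unadjusted p under 0.05 (0.0106% and 0.308%), with a median log2 fold change of -0.22. The authors' deposited table called 0 there (4.01% and 1.75% of all genes). The test of whether the change over time differed between swimming and TAC gave 10 at an unadjusted p under 0.05 and 0 after adjustment (1.86% and 4.31% of all genes). Without TAC 3 day replicate 3, swim 10 day replicate 2 or swim 4 day replicate 3, 2 genes were called higher in that test, and without either of the latter libraries 1 was called lower.

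Of 65 other genes of fatty acid metabolism, 59 were tested between cell types, 11 of which reached the minimum level only with the cardiomyocyte libraries. Over the other 48, 38 were higher and 7 lower in cardiomyocytes, with a median log2 fold change of 1.68. Of all 10371 genes tested, 38.7% were higher and 38.6% lower. The peroxisomal hydroxylase Phyh was at 106 FPKM in cardiomyocytes against 2.48 in sedentary fibroblasts, the ketone-using enzyme Oxct1 at 112 against 4.44, the mitochondrial dehydrogenase Hsd17b10 at 64.5 against 3.42 and the nuclear receptor Esrra at 23.3 against 0.669. The same 48 were tested among fibroblast groups. After 10 days of TAC 29 of them rose and 4 fell (38.8% and 27% of all genes), after 4 days of swimming 26 and 7 (38.2% and 26.3%), and after 10 days of swimming 19 and 3 (30% and 13.6%). After 3 days of TAC 13 rose and 9 fell (31.3% and 25.8%), and after MI 6 and 0 (8.93% and 2.34%).

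Lpl, the lipase that frees fatty acids from circulating triglyceride, fell in all 4 TAC and swim comparisons, from a mean of 22.7 FPKM in sedentary and 25.3 in sham to 5.52 after 3 days and 8.86 after 10 days of TAC, and to 8.09 and 7.91 after 4 and 10 days of swimming. The fatty acid receptor Cd36 fell after both swim times, to 17 FPKM at 4 days and 16.6 FPKM at 10 days from 36, and after 3 days of TAC, to 17.4 FPKM from 33.2 in sham. Hsd17b10 rose in all 4 comparisons, by 1.57 and 1.87 after 3 and 10 days of TAC and by 1.89 and 1.52 after 4 and 10 days of swimming. Mcee, of propionate breakdown, rose by 1.32, 1.61, 2.10 and 1.59 in the same order. Fabp4, the binding protein of fat and capillary cells, rose after 10 days of TAC to 490 FPKM from 96.7 (log2 fold change 2.30), beside the endothelial markers that rose there (Cldn5 by 1.96, Egfl7 by 1.90), whose part was not tested. Angptl4, which inhibits Lpl, rose after MI (16.5 against 3.66 FPKM, log2 fold change 1.89) and fell after 4 days of swimming (1.12 FPKM, -1.11). Fabp5 rose after MI (1.49), after 3 and 10 days of TAC (1.30 and 1.99) and after 4 days of swimming (1.03). The carrier Ucp2 rose after MI (1.30), after 3 and 10 days of TAC (0.93 and 1.74) and after 4 and 10 days of swimming (12.1 and 6.87 FPKM, from 3.67). Counts and values of these other genes are given with the length and GC trend in place and with no library left out. The part of that trend in their changes was not tested.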

How the data were processed

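Per the labels' protocols, poly-A RNA was extracted with a column kit and made into stranded libraries. The authors computed FPKM with Cufflinks 2.0.2 on mm10, per the submitters' processing notes. Which aligner and gene annotation were used is not given in the sources used here. A Cuffdiff table deposited by the authors holds log2 fold changes, treated as a score because groups at 0 give extreme values, with p-values and q-values. The 44 columns of confidence bounds in the FPKM table, and a table with pooled controls, were not used.

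Values were taken to log2(FPKM + 1) and tested in limma 3.58.1 with its trend and robust options, under R 4.3.3. Genes had to reach FPKM 1 in 2 or more of the libraries fitted. The 19 fibroblast libraries shared a model (9425 genes), and the cell types were compared in a model of all 22 (10371 genes). Calls needed a Benjamini-Hochberg adjusted p under 0.05. The test was checked on simulated data. Lengths and GC content are those of principal transcripts in GENCODE M21, and the trend removed was a spline with 4 degrees of freedom on each. The pseudocount was varied to 0.1, the filter dropped, libraries scaled to a common median, and each library left out. The marker covariate was added after seeing the data. Any of the 36 genes could be named, and of the other pathway genes up to 6 called genes per comparison with the largest changes, if the group with more had a mean FPKM of 5 or above. The members and lists were chosen with earlier results of these data known.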

Additional observations from a re-analysis of the deposited data

How the results depend on the processing

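The fold changes rest on FPKM of unknown depth, and fibroblast levels of most of the 36 genes were under 10 FPKM, where the added 1 compresses them. Of the 116 calls, all remained with a pseudocount of 0.1, 113 with libraries scaled to the same median, 109 with no filter, 108 with only the 2 groups compared, and 74 with the length and GC trend removed. These include the cell type calls of the 6 genes that reached the minimum only through the cardiomyocyte libraries, which are no evidence.

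With the length and GC trend removed, genes called higher or lower became 6 and 1 after 3 days of TAC, 1 lower after 10 days, 1 lower after 4 and 0 lower after 10 days of swimming, 3 higher after MI, 0 higher for swimming against TAC at 10 days, 2 higher at the early times and 1 higher over TAC time. It turned the sign of 9 called values: Acot13 (-0.20), Acsl3 (0.00066) and Ech1 (-0.065) after 3 days of TAC, Acaa2 (-0.024), Acsl3 (0.028), Eci1 (-0.0039) and Mlycd (-0.084) after 10 days of TAC, and Acsl3 (0.17) and Mlycd (-0.076) after 4 days of swimming. Median scaling gave 4 lower after 10 days of TAC, 5 and 4 lower after 4 and 10 days of swimming, 10 lower for swimming against TAC at 10 days, 2 higher at the early times and 1 lower for the change over time between stimuli. No filter gave 1 lower after 10 days of swimming, and 1 higher and 3 lower for swimming against TAC at 10 days. A pseudocount of 0.1 gave 2 higher after MI. The authors' deposited table gave 5 higher and 1 lower after 3 days of TAC, 1 lower after 10 days of TAC and after each swim time, 1 higher for swimming against TAC at 10 days, 0 at the early times and 1 higher over TAC time. Of all genes, that table called 10.2% higher and 13.4% lower for swimming against TAC at 10 days. At the early times it called 3.4% and 4.83%. The marker covariate gave 3 lower for swimming against TAC at 10 days, 1 higher and 1 lower over TAC time, and 2 higher and 1 lower for the change over time between stimuli. Shares of all genes called under the altered limma settings are not given here. The cause of these shifts was not tested.

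Leaving out 1 library at a time kept 603 of 679 calls, the cell type calls of the same 6 genes included. Counts then ran from 6 to 12 higher and 2 to 4 lower after 3 days of TAC, 2 to 4 lower after 10 days, 1 to 2 higher after MI, 2 to 5 lower after 4 days and 0 to 3 lower after 10 days of swimming, 0 to 3 higher and 2 to 8 lower for swimming against TAC at 10 days, 0 to 1 higher at the early times, and 0 to 2 higher and 0 to 1 lower for the change over time between stimuli.

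The 3 sedentary libraries of each cell type share replicate numbers. With the replicate block, 32 genes were higher and 4 lower in cardiomyocytes, as without it. The 6 genes that reached the minimum only through the cardiomyocyte libraries are among the 32. Deviations of same-numbered libraries correlated at 0.243, 0.312 and 0.0558. The replicate 3 libraries also carry the same date in their titles, and the other pairs share only a number. Each library correlated best with its own number except fibroblast replicate 3 (0.0859 with cardiomyocyte replicate 1).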
